A study of Rattus norvegicus with 8 samples.

Results

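Calmodulins and neuronal calcium-binding proteins were followed here through 9 genes, Calb1, Calb2, Pvalb, Calm2, Calm3, Calml3, Hpca, Vsnl1 and Ncald. They were taken as the non-control spots whose gene name in the scanner files was one of these symbols, which gave 11 spots for 9 of the 35199 gene names on the array. RNA came from the dentate gyrus (DG) of adult female Sprague-Dawley rats of 150 to 200 g, all ovariectomized and all taken through status epilepticus (SE) induced with kainic acid. The castrated, oil-injected rats with SE (COS, n = 4) received oil, and the castrated, E2-replaced rats with SE (CES, n = 4) received estradiol benzoate (E2). Per the sample records, E2 was given as 4 doses of 2 μg every 24 h, 2 before and 2 after SE, kainic acid was given at 16 mg/kg, and SE was ended with pentobarbital after 5 h. The methods of the study differ from these records in the dose of kainic acid, the agent that ended SE, the placing of the E2 doses and the time of tissue collection, and nothing in the data decides between the accounts. Rats without SE were not analysed here, so the values show how COS and CES differed and not how SE moved either group.

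Most calcium signals in a neuron are read by proteins that carry EF-hands, helix-loop-helix folds whose loop holds a calcium ion. Buffers such as calbindin D28 (Calb1), calretinin (Calb2) and parvalbumin (Pvalb) bind calcium and so shape its time course, and in the DG they also mark cells. Calbindin is abundant in mature granule cells, parvalbumin marks fast-spiking interneurons, and calretinin marks other interneurons, hilar mossy cells in some species and newborn granule cells. Calmodulin is a sensor that is made from several separate genes with the same protein product, among them Calm2 and Calm3, and it switches kinases, phosphatases and channels. Hippocalcin (Hpca), visinin-like 1 (Vsnl1) and neurocalcin delta (Ncald) are sensors that move to membranes when calcium rises, and Calml3 is a calmodulin-like gene known mainly from epithelia.

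The probes are 60 bases long, and 3 are shown because they read coding sequence of a calcium sensor or buffer. The probes of Calml3 and Vsnl1 run into the calcium-binding loop of an EF-hand, whose bases are in capitals. The probe of Calb1 covers 209 bases of the rn4 genome, so it spans an intron and reads spliced RNA.
Calml3 (rn4, chr17:77594980-77595039, plus strand): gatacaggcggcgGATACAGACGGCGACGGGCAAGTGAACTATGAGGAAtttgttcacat
Vsnl1 (rn4, chr6:34771204-34771263, minus strand): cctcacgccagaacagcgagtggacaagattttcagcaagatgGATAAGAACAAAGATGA
Calb1 (rn4, chr5:30475783-30475991, plus strand): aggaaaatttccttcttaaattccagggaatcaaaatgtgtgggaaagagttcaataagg

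Each of the 4 two-colour arrays held 2 rats of the same group, 1 in Cy3 and 1 in Cy5, and all arrays lay on 1 slide. Replicates 1 and 3 carried Cy3 and replicates 2 and 4 carried Cy5 in both groups. A level is the log2 of the background-subtracted signal of a gene divided by the median signal of the valid spots in the same channel, so 0 is the level of a middling spot. Valid spots, with a foreground of at least 2 times their background, numbered 32381 to 38553 in the COS rats and 30690 to 35352 in the CES rats, of 43379. A gene was quantified where a spot was valid in all 8 rats, as was true of 21332 gene names and of all 9 members. Single levels are compared between rats and not between probes. The summed level of a list is the log2 of its genes' added signals, so its brightest probes weigh most. Limma called 7276 genes (34.1%) different at an adjusted p under 0.05, 1238 (5.8%) higher and 6038 (28.3%) lower in CES, and the median log2 difference of all genes, CES minus COS, was −0.25. That median depends on the scaling and was 0.06 after loess and Aquantile normalization and 0.145 with the channels scaled over the spots valid in every rat, so differences are also given relative to it. The labelled tissue carries neurons and glia together, and in such bulk RNA fewer cells of a type and less RNA per cell cannot be told apart.

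Of the 9 genes, 0 were called by limma with its Benjamini-Hochberg adjustment over all genes, against 34.1% of all genes. In the same fit 4 of the 9 had an unadjusted p under 0.05, a share like that of all genes, 9633 of 21332. The 4 were Calb2, Pvalb, Calm2 and Hpca, with differences, CES minus COS, between 0.51 and 0.55 on the log2 scale. Without Calml3, whose probe was near background, the median difference of the other 8 was 0.44, or 0.70 against the all-gene median, and 6 of these 8 differences were positive, compared with 6723 of 21332 over all genes. The COS and CES values overlapped for all 9 members, whereas they did not overlap for 21.4% of all genes. In Calb2, Pvalb, Calm2, Hpca and Vsnl1, 3 of the 4 CES rats lay above every COS rat, and the remaining rat was CES replicate 2 in each case.

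**Figure D1:**
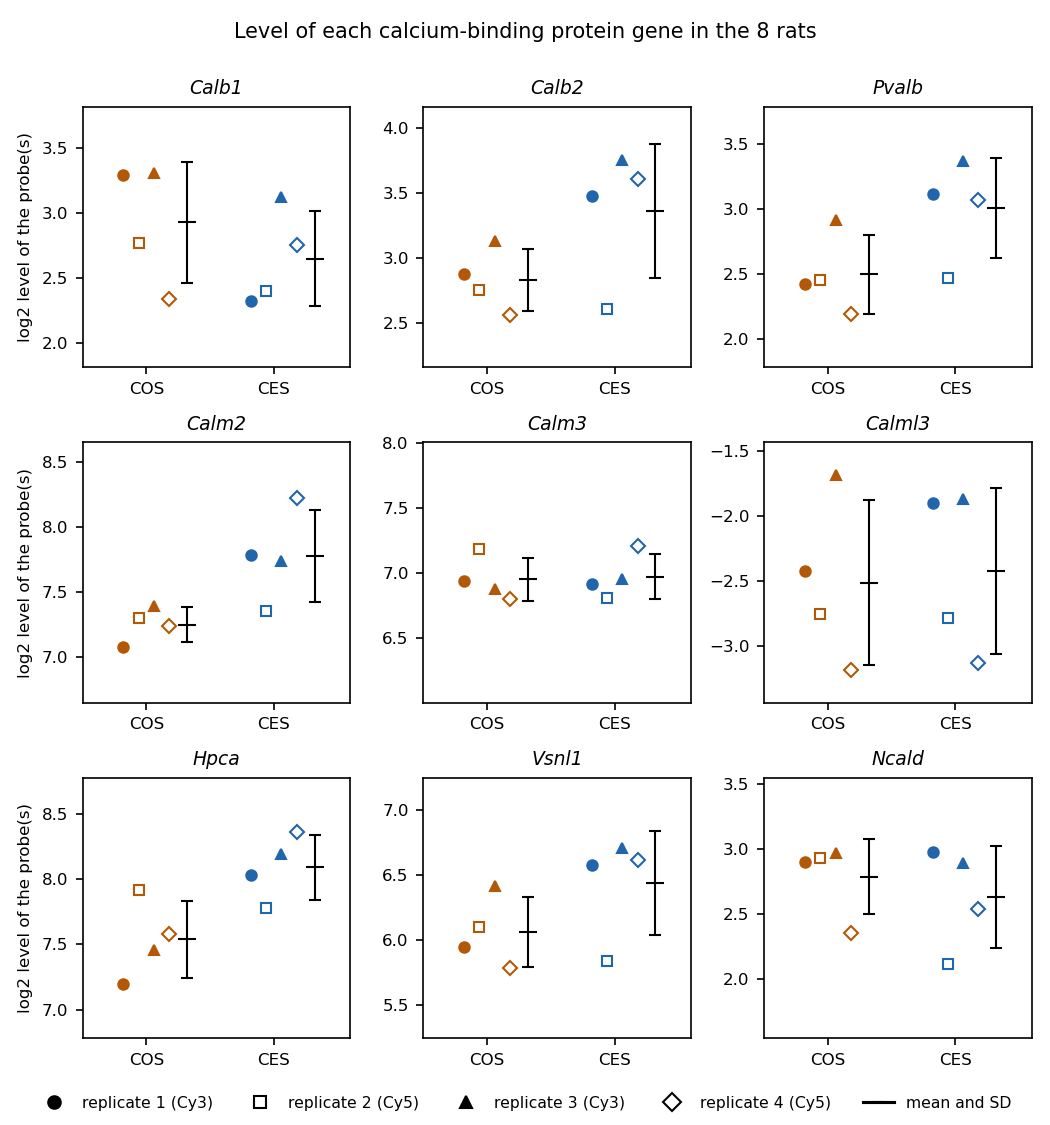
Log2 level (y axis) of the 9 genes in each COS and CES rat, one panel per gene with a y range of the same width; symbols give the replicate, filled for Cy3 and open for Cy5, and the black bars give the mean and SD of 4 rats. CES replicate 2, the open blue square, lies within the COS range in every panel but that of Ncald, where it lies below. The other CES rats lie above every COS rat for Calb2, Pvalb, Calm2, Hpca and Vsnl1.

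Among the buffers, the Calb2 level was 2.88, 2.76, 3.13 and 2.56 in COS replicates 1 to 4 and 3.47, 2.61, 3.76 and 3.60 in CES replicates 1 to 4. CES replicate 2 was the second lowest of all 8 rats and the other CES rats were the highest. The log2 difference was 0.53 (standard error, s.e., 0.22, 95% interval 0.03 to 1.03, adjusted p = 0.0939), a fold of 1.44 with an interval of 1.02 to 2.04, and 0.78 against the all-gene median. The spread over the CES rats (SD 0.51) was wider than over the COS rats (SD 0.24), with CES replicate 2 below the other CES rats.

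Pvalb, like Calb2, was highest in CES replicate 3 and lowest among the CES rats in replicate 2. Its level was 2.42, 2.45, 2.92 and 2.19 in COS and 3.11, 2.47, 3.37 and 3.07 in CES, so CES replicate 2 stood at the level of COS replicate 2. The difference was 0.51 (s.e. 0.20, 95% interval 0.07 to 0.95, adjusted p = 0.0724), or 0.76 against the all-gene median.

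Calb1 had the lowest difference of the 8 genes for which one is given. Its level was 3.29, 2.77, 3.30 and 2.34 in COS and 2.32, 2.40, 3.12 and 2.75 in CES. COS replicates 1 and 3, both in Cy3, were the highest, CES replicate 3 came next, and the groups overlapped widely. The difference of −0.28 (s.e. 0.23, 95% interval −0.79 to 0.24, adjusted p = 0.377) was −0.02 against the all-gene median, and its sign turned positive under 4 of the alternative settings.

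The array holds 3 further probes under the name of an mRNA entry which the files describe as rat calbindin D28. These probes were not among the members by the rule and were looked at after the values of Calb1 were known. They are placed downstream of the Calb1 probe on chromosome 5 of rn4, a nearer one at 30479753 to 30479812, one spotted 10 times at 30480258 to 30480317, and the farthest at 30480350 to 30480409. Whether the 2 farther probes read calbindin is in doubt. The sequence of the one with 10 spots was thought, from general knowledge, to resemble the coding sequence of Bnip3, a mitochondrial protein of cell death and mitophagy. That likeness was not checked against any sequence. No transcript sequence was at hand to test the match, so the 3 probes are not averaged and the farther ones are not taken as a level of Calb1.

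The nearer probe read 3.88, 3.34, 3.80 and 2.75 in COS and 3.04, 3.07, 4.11 and 3.59 in CES, with a difference of 0.01 (s.e. 0.27, adjusted p = 0.98 in a fit over probes). Like the Calb1 probe it was high in COS replicates 1 and 3 and low in COS replicate 4 and CES replicates 1 and 2, and Pearson's r between the 2 probes was 0.921 over the 8 rats. The probe with 10 spots read 2.64, 2.69, 3.30 and 2.53 in COS and 3.33, 2.80, 3.16 and 3.16 in CES, with a difference of 0.32 (s.e. 0.19, adjusted p = 0.214), and the farthest probe had 0.34 (s.e. 0.18, adjusted p = 0.171). On both of these COS replicate 1 was low and CES replicate 1 was high, the reverse of the Calb1 probe. Their levels ran with those of the array's own Bnip3 probe (r = 0.877 and 0.929 over the 8 rats), while the Calb1 probe and the nearer probe did so less (r = 0.0927 and 0.399). The rats lay on 1 slide and differed in dye, which was not taken out of these correlations. How many other genes ran as closely with the farther probes was not counted, and what these probes hybridize to was not tested.

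**Figure D2:**
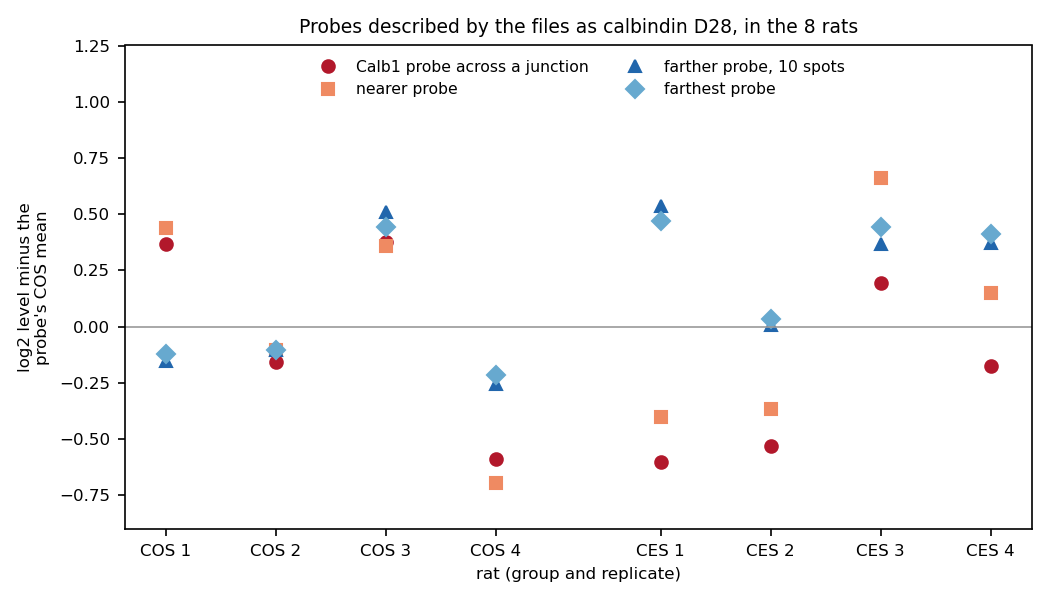
Log2 level of the Calb1 probe and of the 3 further probes described as calbindin D28 in each rat (x axis, group and replicate) minus that probe's mean over the COS rats (y axis). The red and orange probes, Calb1 and the nearer probe, move together, as do the blue farther probes, whose identity is in doubt, and the pairs part most in COS replicate 1 and CES replicate 1.

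Of the calmodulin genes on the list, Calm2 had the larger measured difference. Calm2 stood at 7.07, 7.30, 7.39 and 7.23 in COS and at 7.78, 7.35, 7.74 and 8.22 in CES. CES replicate 2 lay just under the highest COS rat and the other CES rats lay above all of COS. The difference was 0.53 (s.e. 0.20, 95% interval 0.07 to 0.98, adjusted p = 0.0711), or 0.78 against the all-gene median. Its probe is placed by the files on chromosome 15 of rn4, from 64162147 to 64162206, which is not the chromosome where the RefSeq table has Calm2, while the other 10 member probes lie on the chromosome of their gene. Whether a copy elsewhere adds to the Calm2 signal was not tested.

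Calm3 read 6.94, 7.18, 6.88 and 6.80 in COS and 6.91, 6.81, 6.95 and 7.21 in CES. The values of both groups covered nearly the same range, and the difference of 0.02 (s.e. 0.17, adjusted p = 0.936) had a 95% interval of −0.35 to 0.39 on the log2 scale. Against the all-gene median it was 0.27. The difference between Calm2 and Calm3 was not itself tested. Their probes share at most 5 bases in a row, and no pair among the probes of Calm2, Calm3 and Calml3 shares a run of more than 6.

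Calml3 was barely measured. Its foreground was between 2.07 and 3.30 times its background over the 8 rats, and its level was well above background in 0 COS rats and 1 CES rat. The level ran from −3.18 to −1.69 in COS and from −3.13 to −1.87 in CES, and no fold is given. In both groups the Cy3 rats read higher than the Cy5 rats, by 0.99 on average within arrays.

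The measured differences of the membrane-directed sensors ran from −0.16 to 0.55. Hpca, which is named for its abundance in hippocampal pyramidal cells, read 7.20, 7.92, 7.46 and 7.58 in COS and 8.03, 7.78, 8.20 and 8.36 in CES. COS replicate 2 lay above CES replicate 2, and apart from this pair the groups were separate. The difference of 0.55 (s.e. 0.20, 95% interval 0.11 to 1.00, adjusted p = 0.0541) was the largest of these 8 and was 0.81 against the all-gene median.

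Vsnl1 has 2 probes. Averaged, its level was 5.95, 6.10, 6.42 and 5.79 in COS and 6.58, 5.84, 6.71 and 6.62 in CES. CES replicate 2 was the second lowest rat and the other CES rats were the highest, as with Calb2. The difference was 0.37 (s.e. 0.21, 95% interval −0.10 to 0.84, adjusted p = 0.195), with 0.33 on the probe that runs into the EF-hand and 0.41 on the other, at 34770231 to 34770290 of chromosome 6.

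Ncald also has 2 probes, on chromosome 7 at 72881784 to 72881843 and 72876352 to 72876411. Its level was 2.90, 2.93, 2.97 and 2.36 in COS and 2.98, 2.12, 2.89 and 2.54 in CES. The Cy5 rats CES replicate 2 and COS replicate 4 were the lowest, and the difference was −0.16 (s.e. 0.19, adjusted p = 0.549), with −0.15 and −0.16 on the separate probes. Against the all-gene median it was 0.10, so its sign depends on the reference.

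Where the call of a member depended on the processing, it went to the same few genes. With normexp background correction (2.75% of all genes called), the processed signal (31.6%) or no filter (10%), limma called 0 members. It also called 0 members without the array block (33.8%), with a replicate block (36.9%) and with the brightest probe of each gene (33.6%). The statistical test of the study's methods called 0 genes, members or not. With loess within and Aquantile between arrays limma called Calb2 (adjusted p = 0.0398), Pvalb (adjusted p = 0.0239), Calm2 (adjusted p = 0.0405) and Hpca (adjusted p = 0.0379), all higher in CES, against 23.1% of all genes called and 14.3% called higher. Quantile normalization (24.7% of all genes called) and scaling over the spots valid in every rat (23.7%) called the same 4 genes, as did a filter on spots well above background in all rats (48.5%). A foreground of at least 3 times background (42.9%) and the deposited log2 values (24.8%) called Pvalb, Calm2 and Hpca, and a fit with no dye term (37.4%) called Calm2 and Hpca. Against the all-gene median under each setting, the differences of these 4 genes stayed between 0.58 and 1.02 over 22 alternatives. The sign of these 4 genes and of Vsnl1 turned under 0 of the alternatives. Those that change only the spot filter or the statistical test left the 4 differences as they were, so no sign could turn there. Scaling over the spots valid in every rat left them unchanged relative to the all-gene median.

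Leaving out CES replicate 2 called Calb2, Pvalb, Calm2, Hpca and Vsnl1, 5 of 9 genes against 41.4% of all genes. The differences were then 0.75 for Calb2 (adjusted p = 0.00851), 0.64 for Pvalb (adjusted p = 0.022), 0.70 for Calm2 (adjusted p = 0.0109), 0.72 for Hpca (adjusted p = 0.00939) and 0.55 for Vsnl1 (adjusted p = 0.0401). The 5 genes then had no overlap between the groups by construction, since the other 3 CES rats lay above every COS rat. Over all genes, not selected on this pattern, 30.5% had no overlap without CES replicate 2. Leaving out COS replicate 2 (23.7% of all genes called) called Hpca as the 1 member, and leaving out any other rat called 0 members.

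**Figure D3:**
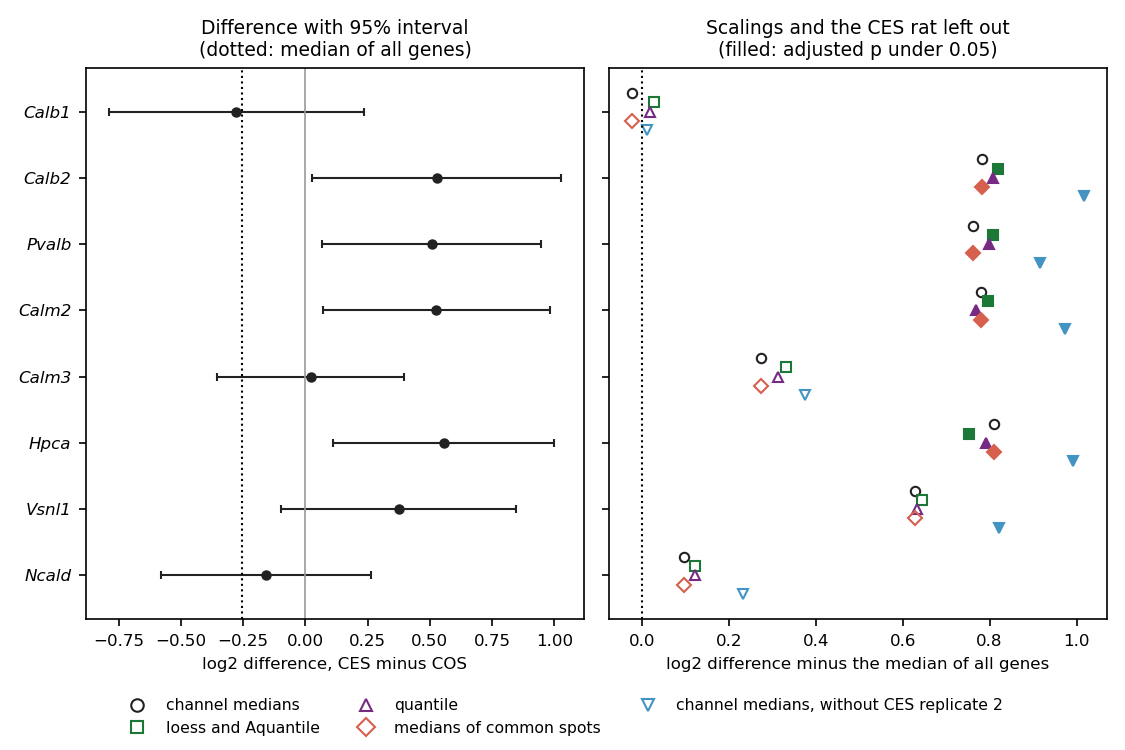
Left, log2 difference CES minus COS of each gene but Calml3, which was near background, with its 95% interval, with the median of all genes as a dotted line; right, the difference minus the median of all genes under 4 scalings and without CES replicate 2, filled where the adjusted p was under 0.05. Calb2, Pvalb, Calm2 and Hpca lie near 0.8 under each scaling, and Calb1 and Ncald lie near the median of all genes.

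The 8 rats lay on 1 slide and differed in dye, which was not taken out of the correlations that follow. The genes whose levels ran most like a buffer's over these rats were found by Pearson's r across all quantified names. For Calb2 they were Vps29 (r = 0.998), a retromer subunit, Tmem204 (r = 0.992) and Itm2c (r = 0.990). For Pvalb they were Stau2 (r = 0.995), which binds RNA in dendrites, and the unnamed entries TC598720 (r = 0.998) and TC603401 (r = 0.995). For Calb1 they were Gtpbp5 (r = 0.988), Lamtor1 (r = 0.984), a lysosomal scaffold, and TC588058 (r = 0.978). Of these 9 names, 0 were called by limma, with adjusted p between 0.0513 and 0.462, against 34.1% of all genes called. They were picked for running closely with buffers that were not called themselves, so this count is no separate result.

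Other EF-hand sensors and buffers moved in both directions. Of 19 quantified, limma called 5 higher and 3 lower in CES and 11 neither, with a median difference of 0.12, or 0.38 relative to all genes. The largest rises were those of Cib2 with 1.26 (adjusted p = 0.0039), Cabp7 with 1.03 (adjusted p = 0.0476) and Necab2, a neuronal calcium sensor, with 0.80 (adjusted p = 0.0366). The 3 falls included S100b, an astrocyte calcium-binding protein, with −2.22 (adjusted p = 0.0479). S100b ran from 0.16 to 3.34 in COS and from −1.82 to 2.63 in CES, so the groups overlapped. It was well above background in 4 COS rats and 3 CES rats. The others were Calu, a calcium-binding protein of the secretory pathway, with −0.90 (adjusted p = 0.00958) and Chp with −0.50 (adjusted p = 0.0409). With normexp background correction 1 of the 19 was called (2.75% of all genes), and without COS replicate 3 likewise 1 (5.49%). The count was 3 without COS replicate 1 (19.4% of all genes), 3 without COS replicate 4 (26%) and 4 without CES replicate 1 (14%). The main fit called 34.1% of all genes, 5.8% higher and 28.3% lower, and the replicate block called 36.9%. The same shares apply to the counts of the lists below.

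Partners of calmodulin were counted in the same way. Of 29 quantified, 6 were called higher and 4 lower, with a median difference of 0.24, or 0.49 relative to all genes. Those higher were led by Camkk2, a kinase that activates other calmodulin-dependent kinases, with 1.12 (adjusted p = 0.0115), Camk2a, the major postsynaptic kinase of this family, with 0.92 (adjusted p = 0.0256), and Camk2g with 0.80 (adjusted p = 0.0259). Those lower were led by Marcksl1 with −1.40 (adjusted p = 0.004) and the phosphodiesterase Pde1c with −1.19 (adjusted p = 0.00459). Pde1c was well above background in only 3 COS rats and 2 CES rats. Rcan2, a calcineurin regulator, came next with −0.80 (adjusted p = 0.0105). After loess and Aquantile normalization 14 of the 29 were called (23.1% of all genes) and with normexp 1 (2.75%). On leaving out single rats the count ran from 2 to 13, against 5.49% to 41.4% of all genes. It was 2 without COS replicate 3, 3 without CES replicate 1 and 4 without COS replicate 1. Without COS replicate 4 it was 5, and without CES replicate 2 it was 13.

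**Figure D4:**
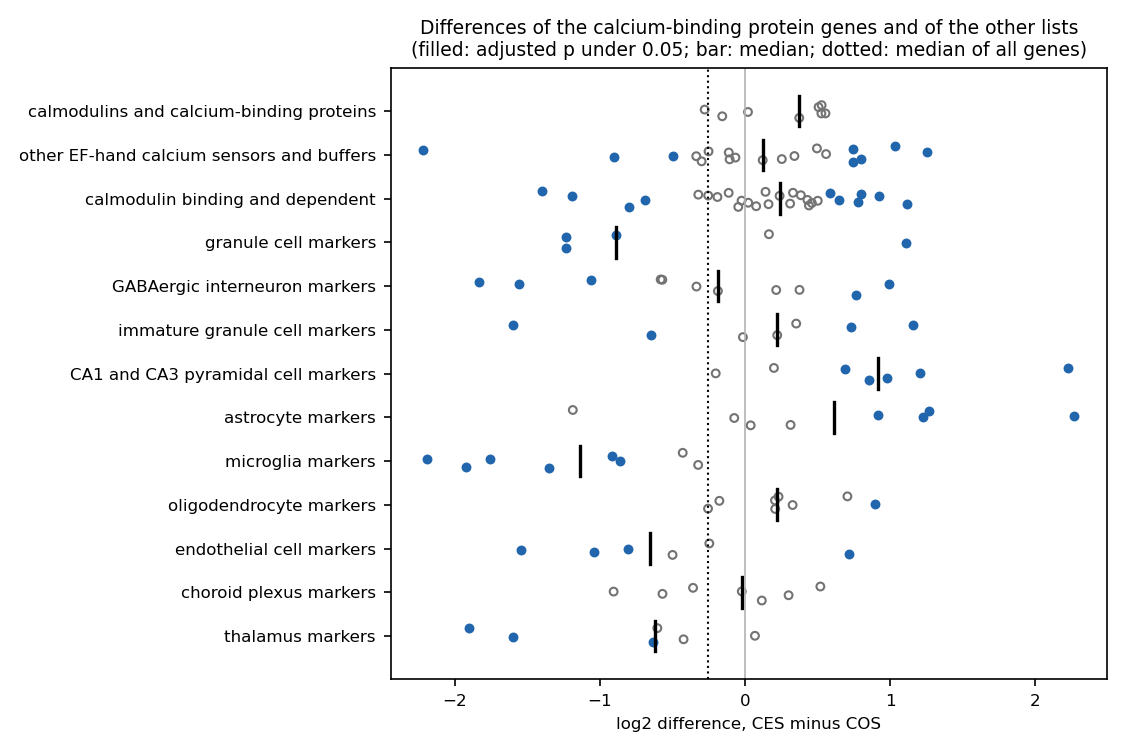
Log2 difference CES minus COS (x axis) of single genes by list (y axis), filled where the adjusted p was under 0.05, with the list's median as a bar and the median of all genes as a dotted line; genes not well above background in any rat of a group are left out of the points but not of the medians. The 8 calcium-binding protein genes shown are open, between −0.28 and 0.55, and the medians of the CA1 and CA3 pyramidal cell markers and of the microglia markers lie at 0.92 and −1.13.

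Markers of the cells that could carry these genes were also compared between COS and CES. Of 5 quantified granule cell markers 3 were lower in CES, C1ql2 by −1.23 (adjusted p = 0.0104), Dsp by −1.24 (adjusted p = 0.00701) and Trpc6 by −0.89 (adjusted p = 0.013), and Neurod2 was higher by 1.11 (adjusted p = 0.00676). Dsp was well above background in only 3 COS rats and 2 CES rats. The defining granule cell gene Prox1 was not quantified. Their summed log2 level ran from 4.93 to 5.87 in COS and from 5.39 to 6.50 in CES. Neurod2 carried that rise, since without it the sum of the other 4 ran from 3.99 to 4.98 in COS and from 3.99 to 4.67 in CES. After loess and Aquantile normalization 2 of the 5 were called, without CES replicate 1 also 2, and without COS replicate 3 1.

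Of 13 quantified interneuron markers, beside which Pvalb and Calb2 stand, Npy (−1.84, adjusted p = 0.0073), Sst (−1.56, adjusted p = 0.0065) and Vip (−1.06, adjusted p = 0.0106) were lower in CES, and Kcnc1, a potassium channel of fast-spiking cells (0.99, adjusted p = 0.0192) and Nxph1 (0.76, adjusted p = 0.0106) were higher. The summed level was 8.89 to 9.42 in COS and 7.94 to 8.80 in CES. Npy and Sst were the brightest of the 13 in COS, with means of 7.58 and 7.51, so they carried most weight in the COS sum. A sum without them was not computed. Gad1 and Gad2, which make GABA, had differences of −0.57 (adjusted p = 0.0603) and −0.58 (adjusted p = 0.0956). Without COS replicate 3 none of the 13 was called (0), as with normexp (0), while quantile normalization called 9.

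Of 8 markers of CA1 and CA3 pyramidal cells, neighbours of the DG that also carry Hpca, 6 were called higher in CES. One of them, Fibcd1, did not clear background in any of the COS rats, so it has no value or rank here, and the other 5 were led by Pou3f1 (2.23, adjusted p = 0.00342), Mpped1 (1.21, adjusted p = 0.0044) and Wfs1 (0.98, adjusted p = 0.00961). Without Fibcd1 the median difference of the list was 0.86. Their summed level was 5.32 to 6.17 in COS and 6.03 to 6.94 in CES, with CES replicate 2 the lowest CES rat at 6.03. The count was 2 without COS replicate 3 or with normexp and 3 without CES replicate 1.

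Of 8 microglia markers 6 were lower in CES, led by Cd68 (−2.19, adjusted p = 0.00489), Itgam (−1.92, adjusted p = 0.0119) and C1qc (−1.76, adjusted p = 0.00731), with a summed level of 7.58 to 8.15 in COS and of at most 7.24 in CES, in replicate 2. After loess and Aquantile normalization 2 of these 8 were called, with normexp 1, and without COS replicate 3 0.

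Of the other lists, 4 of 8 astrocyte markers were higher, led by Gjb6 (2.27), Gja1 (1.27) and Aldh1l1 (1.23), with summed levels of 7.84 to 8.07 in COS and 7.83 to 8.59 in CES. Gfap, the filament protein of reactive astrocytes, ran the other way, with −1.19 (adjusted p = 0.062). The astrocyte count fell to 0 without COS replicate 3 and to 2 with the replicate block or without COS replicate 1, COS replicate 4 or CES replicate 1. Of 7 immature granule cell markers 2 were higher, Neurod1 (1.16) and Dcx (0.73), and 2 lower, Sox4 (−1.60) and Sox11 (−0.65). Sox11 was well above background in only 3 COS rats and 2 CES rats. The summed levels of these 7 were 6.66 to 7.20 in COS and 6.46 to 7.39 in CES. Their count of 4 calls fell to 2 without any one of COS replicates 1, 2 and 3. Of 8 oligodendrocyte markers 1 was higher (Ermn, 0.90), with 0 called without COS replicate 1, 3 or 4 or CES replicate 1 and 2 without CES replicate 2. Of 6 endothelial markers 3 were lower (Esam −1.55, Flt1 −1.04, Tek −0.81) and 1 higher (Slco1a4, 0.72). Flt1 was well above background in 4 COS rats and 2 CES rats, and Tek in 3 COS rats and 2 CES rats. The endothelial count of 4 fell to 0 without COS replicate 3. Of 6 thalamus markers 3 were lower (Prkcd −1.90, Slc17a6 −1.60, Ramp3 −0.63), with summed levels of 4.29 to 5.17 in COS and 2.82 to 4.07 in CES. That count was 0 without COS replicate 3 or with normexp, 1 without CES replicate 1, with loess and Aquantile, with common spots or with the deposited table, and 5 without CES replicate 2. Of 7 choroid plexus markers 0 were called, with summed levels of 5.04 to 9.52 in COS and 5.56 to 7.93 in CES, while 2 were called without COS replicate 4 and 1 without COS replicate 2. The part of cell makeup in the differences of the calcium-binding protein genes was not tested.

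Promoter sequence was at hand for 4 of the 9 genes, from RefSeq on the build GRCr8, and the 250 bases before the start are shown for Hpca, Pvalb and Vsnl1, in which the 3 CES rats other than replicate 2 lay above all of COS. Capitals mark the estrogen response element half-site GGTCA and the cAMP response element half-site TGACG on either strand.
Hpca (GRCr8, chr5:146748359-146748608, minus strand): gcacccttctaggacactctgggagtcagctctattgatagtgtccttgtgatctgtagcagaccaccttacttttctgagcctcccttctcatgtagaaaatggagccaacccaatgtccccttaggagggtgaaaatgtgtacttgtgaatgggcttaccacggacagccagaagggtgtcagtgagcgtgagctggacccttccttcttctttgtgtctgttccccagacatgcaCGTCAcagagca
Pvalb (GRCr8, chr7:111666290-111666539, minus strand): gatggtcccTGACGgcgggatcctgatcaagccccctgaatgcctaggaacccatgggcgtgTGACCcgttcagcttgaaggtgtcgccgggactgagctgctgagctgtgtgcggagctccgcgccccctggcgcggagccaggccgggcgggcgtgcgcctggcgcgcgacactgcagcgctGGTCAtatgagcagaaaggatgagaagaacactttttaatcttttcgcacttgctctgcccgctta
Vsnl1 (GRCr8, chr6:39878557-39878806, minus strand): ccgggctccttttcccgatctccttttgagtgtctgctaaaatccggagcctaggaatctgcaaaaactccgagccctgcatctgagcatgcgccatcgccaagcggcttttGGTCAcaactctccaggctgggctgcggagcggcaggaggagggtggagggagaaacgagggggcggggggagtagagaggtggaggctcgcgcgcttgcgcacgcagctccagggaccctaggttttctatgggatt

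The half-site GGTCA occurred 2 times in the window of Pvalb, 1 time in that of Vsnl1 and 0 times in those of Hpca and Calml3, and 35.2% of 27457 rat promoter windows of this length held it. TGACG occurred 1 time each in Pvalb, Hpca and Calml3 and 0 times in Vsnl1, against 19.0% of windows. The full palindromic estrogen response element was in none of the 4 windows and in 0.0219% of all windows, and the full cAMP response element TGACGTCA was likewise in none of the 4, against 1.7%. The full elements overlap the half-sites. These matches describe letters in a short window and say nothing of binding.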

How the data were processed

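RNA of 8 rats was measured on 4 arrays. The authors deposited, per array, scanner files from Agilent Feature Extraction 10.7.3.1 with the intensity of each spot and its local background in both channels, unnormalized, beside an intensity processed by that software. They also deposited a table of log2 values, whose columns equal the log2 of the median signal minus background, less a constant per channel. The software's flags enter only as filters. Saturated spots numbered 0, and 0 per-sample columns were left unmapped.

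From these, each spot's mean signal less its background median was scaled to the median of valid spots of the channel, averaged over a gene name's spots valid in all 8 rats (27642 spots), and taken to log2. Limma 3.58.1 in R 4.3.3 (statmod 1.5.0) fitted group and dye, with the array, nested in the group, as a random block (consensus correlation −0.006), two-sided, with Benjamini-Hochberg adjustment over 21332 names and a threshold of 0.05. The median standard error was 0.20, which the number of arrays limits. The records call the samples biological replicates, 1 rat each.

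Members and gene lists were chosen with earlier results of these data known. From each list at most 3 called genes per direction were named, by size, and Gad1, Gad2, Gfap, Wfs1 and Bnip3 were named after their values were seen. Same-numbered rats of both groups share a dye, and their deviations correlated by 0.21 to 0.34, and by −0.07 to −0.04 once dye was taken out, so the numbers were not taken to pair rats.

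Alternatives were normexp (offset 50), the processed signal, loess with Aquantile, quantile, scaling over common spots, no filter, a stricter foreground (3 times background), spots well above background, dropping the array block or the dye term, a replicate block, the brightest probe, the methods' t-test, the deposited values and omission of each rat in turn. The fit over probes and the granule cell sum without Neurod2 were added after seeing the data. The fit was tested on simulated data. Promoters were read with Python 3.11.15 and pandas 2.3.3, and figures drawn with matplotlib 3.10.9.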

Additional observations from a re-analysis of the deposited data

Results flagged for a closer look

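In 2 of 18 groups of 4 rats (the 9 genes, in COS and in CES), 1 rat stood apart from the other 3 by a gap beyond Dixon's 95% limit, and chance alone gives about 5% of such groups. The Vsnl1 level of CES replicate 2 was 5.84, while the other CES rats lay between 6.58 and 6.71, a gap of 0.85 of the range. The Ncald level of COS replicate 4 was 2.36 against 2.90 to 2.96 in the rest of COS, a gap of 0.89 of the range.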

How the results depend on the processing

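The count of members called was 0 in the report, against 34.1% of all genes. It was 4 with loess and Aquantile (23.1% of all genes), quantile normalization (24.7%) and scaling over common spots, those valid in every rat (23.7%). Spots well above background also gave 4 (48.5%). The stricter foreground of 3 times background (42.9%) and the deposited log2 table (24.8%) gave 3, and dropping the dye term gave 2 (37.4%). The count stayed 0 with normexp (2.75%), the processed signal (31.6%), no filter (10%), no array block (33.8%), the brightest probe (33.6%) and the methods' t-test. On leaving out single rats it was 0 to 5, against 5.49% to 41.4% of all genes. All were calls of a higher level in CES. Over all genes the count of 7276 became 586 with normexp, 3521 without a filter and 0 by the methods' t-test (6103 at an unadjusted p under 0.05), and 1171 to 8837 on leaving out single rats, lowest without COS replicate 3 and highest without CES replicate 2. The share of higher calls was 17% and became 61.7% with loess and Aquantile, 57.9% with quantile normalization, 66.1% with common spots and 62.9% with the deposited table. The sign turned for Calb1 (0.083 with loess, 0.076 with quantile, 0.12 with common spots, 0.087 with the deposited table), for Ncald (0.18, 0.18, 0.24 and 0.23 in the same order, and 0.003 with normexp) and for Calm3 (negative without COS replicate 4, CES replicate 3 or CES replicate 4, in a range of −0.07 to 0.102 on leaving out single rats). The replicate block gave 7865 calls and 0 members, and changed no member's call. The cause of these changes was not tested. Calml3 was near background, so no difference is given for it under any setting.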
